A study of Rattus norvegicus with 16 samples.

Results

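The response of the rat liver to sepsis was compared with its control within rats held under propofol, in 4 Propofol-Sepsis libraries and 4 propofol control libraries out of 16 libraries in the series. Library titles give the drug, the condition and a number, and the members were picked by those titles, numbered 9 to 12 (Propofol-Sepsis) and 13 to 16 (propofol control). Values below are always given in that order. All rats of these 8 libraries were male Sprague-Dawley rats aged 10 weeks whose anesthesia was induced with ketamine and xylazine and then held with propofol, so that the induction drugs are shared by both groups. Sepsis was made by cecal ligation and puncture (CLP), in which the cecum is tied off and pierced so that gut bacteria leak into the abdomen. In the control rats the abdomen was opened and the cecum was brought out and returned without either step. Livers were taken 8 h after the celiotomy, and liver material of 3 rats was pooled for each library, so 12 rats stand behind each group and the spread between libraries is a spread between pools. The other 8 libraries, from rats under isoflurane, are used only where the responses under the anesthetics are set against each other.

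In an infection the liver is both a target and a source of signals. Cytokines such as interleukin-1 and interleukin-6, released by resident macrophages (Kupffer cells) and arriving blood cells, act on hepatocytes through NF-κB and STAT factors, and hepatocytes then secrete acute-phase proteins. Nuclear receptors that pair with the retinoid X receptor keep the genes of bile acid, drug and lipid metabolism active in the healthy liver, and inflammation is known to lower many of them.

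Reads counted on genes numbered from 17167929 to 32121381 per sepsis library and from 14199422 to 19621491 per control library, and 10348 genes had enough counts to be tested. Levels are read counts scaled to a common library size by TMM (CPM), and differences are log2 fold changes of sepsis over control. The standard errors (SE) that follow them are derived from the test, as the absolute change divided by the square root of its F statistic. A gene is called where the adjusted p of edgeR's quasi-likelihood test, corrected over all genes tested by the method of Benjamini and Hochberg, was below 0.05. Of the genes tested 2107 (20.4%) were called higher in sepsis and 2246 (21.7%) lower. The median change of the called genes was 0.51 upward and -0.57 downward, and 425 genes (4.11%) rose and 439 (4.24%) fell by over 2-fold. Every sepsis library lay above every control library for 20.7% of the genes and below every control library for 21.5%. Scaling by library totals alone gave 1675 higher (16.2%) and 2700 lower (26.1%), so the share of higher calls among all calls moved from 48.4% to 38.3%, while the median over all genes went from -0.002 to -0.056. Genes called higher made up a mean of 31.0% of the CPM in the controls and 41.5% in sepsis, and genes called lower 17.9% and 11.9%.

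Sepsis library 10 stood apart. The summed level of 54 markers of neurons, glia and myelin was 835 CPM in it and between 55.4 and 82.4 CPM in libraries 9, 11 and 12, with 46.8 to 75.5 CPM in the controls. Of these markers 53 had their highest value in library 10, and it was the only 1 of the 8 libraries with a count for each of the 54. The brain of each rat had been expelled from the skull before the liver was cut out, and whether brain tissue reached this pool was not tested. Over all tested genes, 236 were over 2-fold higher in library 10 than in every other of the 8 libraries. The comparison was therefore repeated on 7 libraries. Without library 10, 10397 genes were tested, of which 2074 (19.9%) were higher and 2217 (21.3%) lower, with 361 (3.47%) and 451 (4.34%) past 2-fold. Of the calls in all 8 libraries 1910 rises and 2019 falls were called again in the same direction, 197 and 227 were not, and 0 were called in the opposite direction. Many results that moved without library 10 are given below with and without it, and the rest with all 8 libraries.

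**Figure D1:**
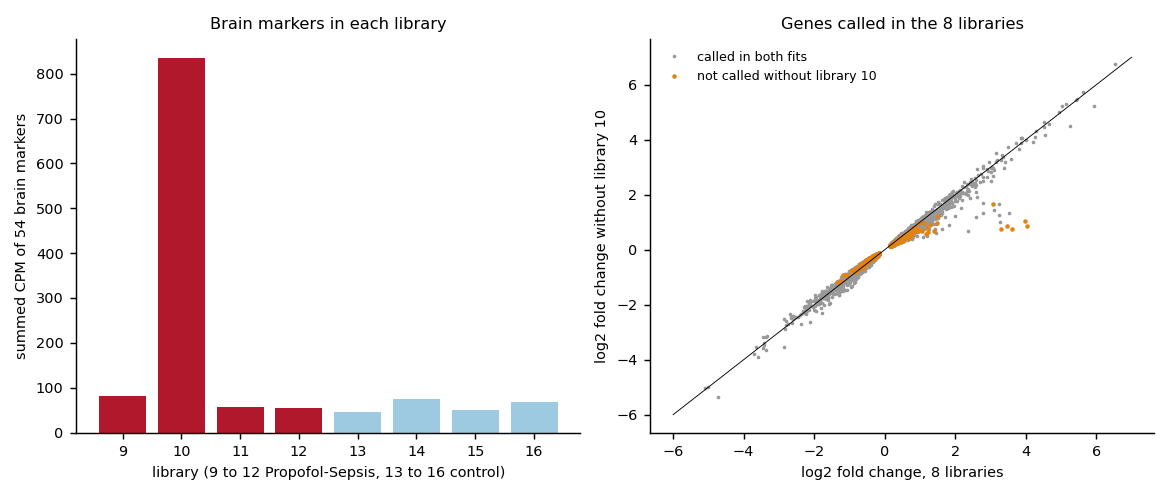
Left, summed level in CPM of 54 brain markers in each library, where library 10 reaches 835 and the other 7 lie between 46.8 and 82.4. Right, log2 fold changes of the genes called in the 8 libraries, with all libraries (horizontal axis) and without library 10 (vertical axis), where the line marks equal values and the points far below it on the right are rises carried mainly by library 10.

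The largest rises were taken among genes that were called with and without library 10 and whose groups did not overlap. These genes also had a mean log2 CPM of at least 1 over the 8 libraries. Cxcl2 (5.44), Ptx3 (5.42) and Serpinb2 (5.63) fell short of that level, rose more on the log2 scale than Tifa, and are described with their lists. Tifa, an adaptor that links bacterial sugar sensing to TRAF6 and NF-κB, was at 115, 75.6, 215 and 162 CPM in sepsis and 3.59, 6.55, 4.89 and 2.44 CPM in controls, which is 32.7-fold higher (log2 fold change 5.03, SE 0.39, adjusted p = 3.35e-05). Havcr1, known as kidney injury molecule 1, was at 31.3, 23.1, 27.3 and 20.1 CPM against 1.56, 0.247, 0.898 and 0.609 (log2 fold change 4.96, SE 0.31, adjusted p = 1.08e-05). Olr1, the scavenger receptor LOX-1, was at 18.8, 32.1, 12.2 and 12.5 CPM against 0.542, 0.124, 1.65 and 0.711 (log2 fold change 4.56, SE 0.51, adjusted p = 0.000163). The groups do not overlap for these genes by the rule that chose them. Library 10 was the lowest of the sepsis libraries for Tifa and the highest for Olr1. Mtmr7, a phosphoinositide phosphatase, was at 53.9, 71.2, 42.8 and 43 CPM against 4.13, 1.24, 1.1 and 4.47 (log2 fold change 4.28, SE 0.38, adjusted p = 5.83e-05), and Sned1, a secreted matrix protein, at 169.9, 186, 84.9 and 144 against 12.7, 7.17, 6.44 and 15.7 (log2 fold change 3.8, SE 0.33, adjusted p = 5.34e-05). Reg3b, a secreted lectin of the Reg family, reached 16.2, 13.9, 36.2 and 21.7 CPM from 1.49, 0.803, 1.9 and 1.57 (log2 fold change 3.90, SE 0.36, adjusted p = 6.57e-05), although reads could be divided between it and close relatives such as Reg3a. The chemokine Ccl3 (3.17), the integrin chain Itgb8 (3.15) and the orphan nuclear receptor Nr4a1 (3.11) completed this group, with adjusted p between 1.66e-05 and 0.00024. Bcat1 and Gas7 met the same conditions but owed most of their size to library 10. Bcat1, an aminotransferase that starts the breakdown of branched-chain amino acids, was at 4.76, 31.9, 3.7 and 2.36 CPM against 1.08, 1.24, 0.499 and 1.62, and its change of 3.26 was 1.67 without library 10. Gas7, a protein abundant in neurons, was at 3.8, 39, 3.03 and 2.49 CPM against 1.08, 1.36, 0.998 and 1.57, with 3.25 and 1.28. Both lost their call with limma-voom (adjusted p = 0.102 and 0.155), and Gas7 also without control library 13, 14 or 15 (adjusted p up to 0.0564).

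The largest falls, taken in the same way, included nuclear receptors, hormones made by hepatocytes and metabolic enzymes. Nr1i3, the constitutive androstane receptor that switches on drug-metabolizing genes, was at 1.07, 0.308, 0.0561 and 0.224 CPM in sepsis and 9.01, 13.7, 19.4 and 11.4 CPM in controls (log2 fold change -5.10, SE 0.49, adjusted p = 8.87e-05). Nr0b2, the small heterodimer partner that represses bile acid synthesis, was at 0.773, 0.769, 0.561 and 0.99 CPM against 3.19, 13.5, 10.5 and 6.7 (log2 fold change -3.42, SE 0.43, adjusted p = 0.000284). Rxrg, a retinoid X receptor, was at 1.6, 0.718, 0.841 and 0.639 CPM against 6.37, 6.67, 5.84 and 6.9 (log2 fold change -2.79, SE 0.26, adjusted p = 7.25e-05). That every sepsis library was below every control in these receptors follows from the rule that chose them. Fgf21, the fasting hormone of the liver, was at 5.05, 7.48, 7.35 and 6.67 CPM against 30, 121, 84.5 and 50.7 (log2 fold change -3.42, SE 0.40, adjusted p = 0.000197), and Tsku, a secreted protein of hepatocytes, at 53.4, 17.9, 26.9 and 23.6 CPM against 267, 253, 457 and 244 (log2 fold change -3.33, SE 0.35, adjusted p = 0.000122). G0s2, an inhibitor of the lipase ATGL, was at 7.43, 3.23, 3.87 and 3.38 CPM against 40.5, 65, 50.8 and 64.9 (log2 fold change -3.66, SE 0.26, adjusted p = 2.41e-05). The control libraries themselves were spread widely for several of these genes. Rgs16, which shortens the signal of G protein-coupled receptors, ranged from 1.9 to 64.2 CPM in controls (1.9, 64.2, 38 and 15.9 in library order) and from 0.654 to 1.25 CPM in sepsis (log2 fold change -5.02, SE 0.91, adjusted p = 0.00199), and its call was lost with limma-voom (adjusted p = 0.0765). Slc2a5, the fructose transporter, was at 4.88, 25.3, 14.3 and 2.89 CPM in controls and 1.49, 1.33, 0.617 and 0.926 in sepsis (log2 fold change -3.45, SE 0.67, adjusted p = 0.00276). The steroid and alcohol enzymes Hsd17b2 (-3.60) and Adh1 (-2.84), the phosphatase-like Hdhd3 (-2.66) and the deubiquitinase Usp2 (-2.63) also fell, with adjusted p between 5.75e-06 and 0.000383.

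**Figure D2:**
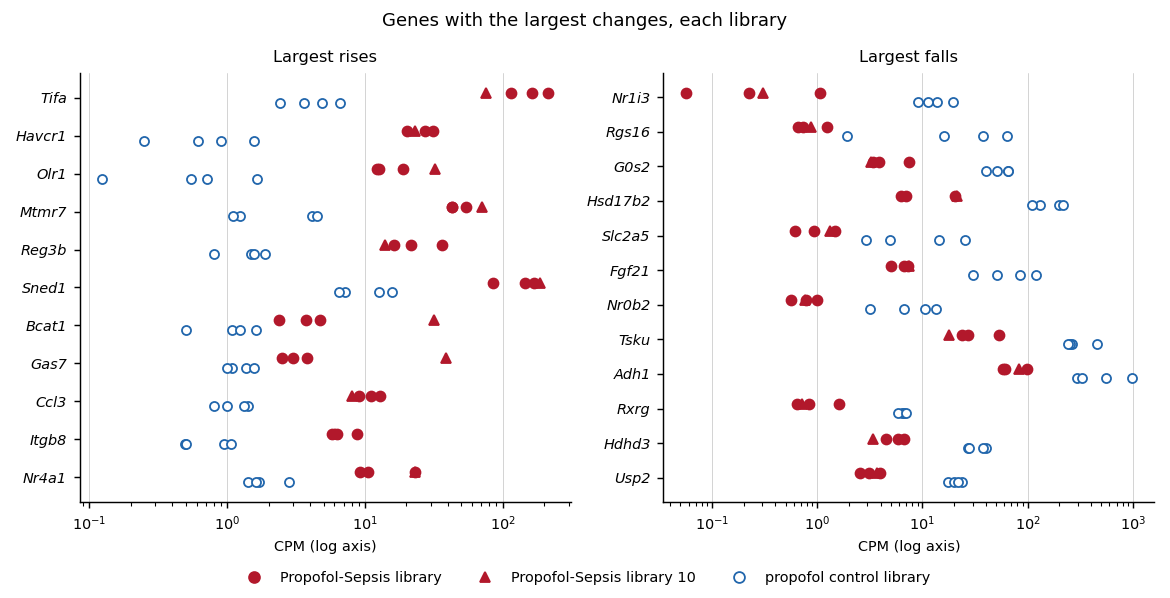
Level in CPM, on a log axis, of the named genes with the largest rises (left) and falls (right) in each library, with sepsis libraries filled, library 10 as a triangle and controls open. The groups do not overlap for any of these genes by the rule that chose them, Tifa runs from 2.44 CPM at the lowest control to 215 CPM at the highest sepsis library, and library 10 lies far to the right of the other sepsis libraries for Bcat1 and Gas7.

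The promoters of the first 3 rises and the first 3 falls of these rankings with an entry in the RefSeq table (build GRCr8) are shown. They run from 250 bases before the start of the gene to 50 after it, 5′ to 3′ on the strand of the gene. Capitals mark matches to 7 short motifs searched on both strands.
Tifa, chr2:218932636-218932935, plus strand: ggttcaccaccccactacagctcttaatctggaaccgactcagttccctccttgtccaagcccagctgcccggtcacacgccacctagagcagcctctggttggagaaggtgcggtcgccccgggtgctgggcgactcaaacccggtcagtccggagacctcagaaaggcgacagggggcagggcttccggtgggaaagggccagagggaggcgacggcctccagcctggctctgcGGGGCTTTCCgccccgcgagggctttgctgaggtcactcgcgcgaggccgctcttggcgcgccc
Havcr1, chr10:31629528-31629827, plus strand: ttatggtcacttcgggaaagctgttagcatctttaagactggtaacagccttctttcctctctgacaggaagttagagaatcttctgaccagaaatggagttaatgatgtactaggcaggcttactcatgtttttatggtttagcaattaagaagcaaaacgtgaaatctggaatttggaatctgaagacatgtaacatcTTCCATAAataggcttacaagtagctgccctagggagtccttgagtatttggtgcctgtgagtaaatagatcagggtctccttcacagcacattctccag
Olr1, chr4:164634498-164634797, minus strand: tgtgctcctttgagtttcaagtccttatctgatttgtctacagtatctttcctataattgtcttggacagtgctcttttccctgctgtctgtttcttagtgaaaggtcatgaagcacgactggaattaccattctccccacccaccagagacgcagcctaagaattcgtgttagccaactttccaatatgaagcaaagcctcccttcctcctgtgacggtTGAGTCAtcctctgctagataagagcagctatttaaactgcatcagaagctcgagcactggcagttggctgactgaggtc
Nr1i3, chr13:86165170-86165469, plus strand: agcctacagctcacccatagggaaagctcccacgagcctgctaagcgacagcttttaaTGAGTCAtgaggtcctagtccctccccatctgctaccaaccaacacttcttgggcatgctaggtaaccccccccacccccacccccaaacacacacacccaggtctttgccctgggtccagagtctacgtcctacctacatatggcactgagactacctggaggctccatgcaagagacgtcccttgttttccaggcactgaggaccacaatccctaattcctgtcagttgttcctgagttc
Rgs16, chr13:68437870-68438169, plus strand: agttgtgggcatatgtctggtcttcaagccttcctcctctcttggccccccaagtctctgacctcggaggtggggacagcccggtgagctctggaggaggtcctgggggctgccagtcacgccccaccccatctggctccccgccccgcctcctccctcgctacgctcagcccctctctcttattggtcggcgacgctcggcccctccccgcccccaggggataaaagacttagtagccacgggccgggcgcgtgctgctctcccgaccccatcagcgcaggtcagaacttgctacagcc
G0s2, chr13:107335899-107336198, minus strand: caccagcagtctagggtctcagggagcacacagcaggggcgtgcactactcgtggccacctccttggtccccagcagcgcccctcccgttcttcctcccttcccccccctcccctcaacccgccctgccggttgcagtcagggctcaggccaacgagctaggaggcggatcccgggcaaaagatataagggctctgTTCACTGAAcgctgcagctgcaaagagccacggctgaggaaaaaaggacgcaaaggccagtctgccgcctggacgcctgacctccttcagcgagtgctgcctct
In the Tifa promoter the capitals are an NF-κB motif whose first base lies at -14 from the start site. That motif was searched as GGG and TTTCC with any 2 bases between them. Havcr1 holds a D-box (TTATG and AA with any 1 base between) at -50, and Olr1 and Nr1i3 an AP-1 motif (TGANTCA) at -30 and -192. G0s2 holds a STAT motif (TTC and GAA with any 3 bases between) at -54, and the Rgs16 window has no match to any motif of the search. Matches are letters in a window and not measured binding. Promoters of tested genes (7754) are the background for those of called genes (1602 higher, 1686 lower, and 302 and 326 past 2-fold), and the table holds 27457 in all. The NF-κB motif was in 1.51% of all promoters, 1.86% of those of tested genes, 2.12% of genes called higher and 1.78% of genes called lower, with 3.64% and 2.45% past 2-fold. The AP-1 motif was in 7.33% of all, 4.90% of tested, 5.93% of higher and 4.63% of lower genes, with 8.61% and 4.6% past 2-fold. In the same order the STAT motif was in 8.68%, 6.69%, 6.43% and 7.47%, with 7.28% and 8.28% past 2-fold. The C/EBP motif (TTG and CAA with any 3 bases between) was in 5.69%, 4.4%, 4.62% and 4.74%, with 5.30% and 6.44%, and the D-box in 3.54%, 1.96%, 1.87% and 2.14%, with 3.64% and 2.15%. The E-box CACGTG was in 6.65%, 9.27%, 8.99% and 8.42%, with 8.28% and 5.21%, and TATAAA in 14.3%, 6.86%, 7.87% and 6.58%, with 11.9% and 9.20%. Shares past 2-fold rest on few promoters, 11 of 302 and 8 of 326 for the NF-κB motif, and no test was run on them. No motif overlaps another in the 6 promoters printed.

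Gene lists give the breadth of the response. Each count is to be read against the shares of all tested genes, 20.4% higher and 21.7% lower, and each median against -0.002 over all genes. The lists were written with earlier results of these data known, so their counts are descriptions.

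Genes of inflammatory signalling were more often higher than lower. Of 39 genes of NF-κB and Toll-like receptor signalling 26 (66.7%) were called higher and 2 lower, with a median of 0.40. Beside Tifa, Nod1, a sensor of bacterial peptidoglycan, rose from 15.5, 19.7, 15.9 and 16.6 CPM to 41.3, 33.2, 40.7 and 40.6 CPM (log2 fold change 1.20, SE 0.10, adjusted p = 4.56e-05). Tlr2, the receptor for bacterial lipoproteins, rose from 4.34, 3.96, 4.49 and 3.15 to 10, 11.2, 11.4 and 10.1 CPM (log2 fold change 1.43, SE 0.13, adjusted p = 5.79e-05). The exceptions were Tlr3, the receptor for double-stranded RNA, which fell from 7.46, 8.59, 6.98 and 6.9 to 2.79, 1.23, 3.03 and 2.24 CPM (log2 fold change -1.69, SE 0.24, adjusted p = 0.000481), and Ikbkg (-0.47, adjusted p = 0.0359), whose call was lost without library 9, 11, 12, 14 or 15 (adjusted p up to 0.0939).

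Among 22 chemokines 10 (45.5%) were higher and 1 lower, with a median of 0.60. The neutrophil attractant Cxcl2 had the smallest adjusted p, with 5.29, 4.25, 5.1 and 3.8 CPM in sepsis and 0.136, 0.124, 0.0998 and 0.0508 CPM in controls (log2 fold change 5.44, SE 0.28, adjusted p = 3.88e-06). Ccl7, which draws monocytes, was at 1.66, 1.44, 1.96 and 2.65 CPM against 0.0678, 0.309, 0.0998 and 0.102 (log2 fold change 3.72, SE 0.40, adjusted p = 0.000145). Both were near absent from control livers, at 0.309 CPM or less. Cxcl12, which holds leukocytes and progenitor cells in tissue, fell from 91, 121, 90.5 and 103 CPM to 43.9, 29.1, 44.4 and 38.2 (log2 fold change -1.39, SE 0.14, adjusted p = 0.000114), and it was the only lower call in this list with all 8 libraries, against 2 without library 10.

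Of 38 cytokines, cytokine receptors and SOCS genes 20 (52.6%) were higher and 5 lower. Il1rn, the antagonist of the interleukin-1 receptor, rose from 99.1, 78.8, 80.4 and 91.9 CPM to 449.6, 508, 537 and 452 (log2 fold change 2.47, SE 0.098, adjusted p = 1.52e-06), and Il1b, the cytokine it opposes, from 8.68, 4.26, 6.34 and 6.19 to 30.9, 31.4, 37.5 and 30.3 (log2 fold change 2.36, SE 0.17, adjusted p = 2.52e-05). Il10, the anti-inflammatory cytokine, was at 2.44, 2.51, 2.52 and 2.68 CPM against 0.136, 0.124, 0.2 and 0.203 (log2 fold change 3.86, SE 0.23, adjusted p = 8.02e-06). Agonist, antagonist and anti-inflammatory cytokine were higher in the same sepsis libraries, each of which is a pool of rats. Il4ra, the interleukin-4 receptor chain, fell by 0.66 on the log2 scale, the macrophage growth factor Csf1 by 1.27 and the TNF receptor Tnfrsf1a by 0.37, with adjusted p between 0.000199 and 0.00293. Ifng was at 0 counts in all 8 libraries.

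In the list of 35 immediate-early and AP-1 factors 17 (48.6%) were higher and 4 lower. Nr4a1 rose from 1.69, 1.42, 2.79 and 1.62 CPM to 10.6, 23.2, 23.2 and 9.23 (log2 fold change 3.11, SE 0.38, adjusted p = 0.00024), Batf from 0.203, 0.185, 0.299 and 0.152 to 0.951, 1.18, 1.46 and 1.15 (log2 fold change 2.45, SE 0.28, adjusted p = 0.000204) and Fosl2 from 3.05, 1.98, 3.24 and 1.98 to 7.49, 9.33, 7.07 and 6.29 (log2 fold change 1.55, SE 0.20, adjusted p = 0.000372). Egr1 and Zfp36, early-response genes as well, were lower at this time. Egr1 was at 157, 145, 184 and 129 CPM against 265, 205, 257 and 198, and Zfp36 at 181, 147, 194 and 176 CPM against 237, 261, 292 and 202. Zfp36 lost its call in the fit of all 16 libraries (adjusted p = 0.183). Klf10, which answers to TGF-β and the clock, fell from 52.4, 69.2, 42.3 and 57.2 CPM to 16.3, 21.9, 23.8 and 21.4 (log2 fold change -1.40, SE 0.16, adjusted p = 0.000163).

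Interferon-stimulated genes were more often lower than higher. Of 47 tested, 26 (55.3%) were called lower and 3 higher, with a median of -0.32. Stat2, a subunit of the factor that drives these genes, fell from 117, 121, 120.4 and 123 CPM to 75.7, 69, 81.6 and 79 (log2 fold change -0.66, SE 0.064, adjusted p = 9.35e-05). Ifit2, a blocker of viral RNA translation, fell from 15.5, 19, 20.6 and 14.7 to 9.09, 9.02, 9.2 and 8.56 CPM (log2 fold change -0.96, SE 0.11, adjusted p = 0.000226), and Ifi44 from 8.74, 9.58, 9.43 and 9.64 to 5.35, 5.23, 5.55 and 5.21 (log2 fold change -0.81, SE 0.088, adjusted p = 0.000149). These 3 falls were picked for the smallest adjusted p of the list. Their groups did not overlap, which such a choice favours. Over the list every sepsis library was below every control for 17 of the 47 genes, against 21.5% of all genes tested. The higher members were Usp18, which removes ISG15 and restrains the interferon receptor, at 20.1, 22, 39.9 and 24 CPM against 8.13, 6.86, 5.74 and 7.66 (log2 fold change 1.90, SE 0.22, adjusted p = 0.000197), Isg20 (0.68) and Gbp2 (0.62). Gbp2 lost its call without library 9, 11, 14 or 16 (adjusted p up to 0.06). Without library 10 the list had 20 lower and 4 higher. Of 8 MHC class II genes 0 were called in either direction by edgeR, 0 had an unadjusted p below 0.05, and 0 were called by DESeq2 or limma-voom, and Cd74, the invariant chain that guides these molecules, was at 106, 105, 113 and 108 CPM in sepsis and 123, 106, 127 and 110.2 in controls (log2 fold change -0.11, SE 0.07, adjusted p = 0.233).

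Genes of the acute-phase and transport protein lists divided by direction. Of 27 positive acute-phase proteins 15 (55.6%) were higher and 1 lower. Ptx3, a pentraxin that binds microbes, was at 4.58, 5.02, 5.5 and 5.43 CPM against 0, 0.309, 0.0998 and 0.0508 (log2 fold change 5.42, SE 0.43, adjusted p = 3.81e-05). Steap4, a metalloreductase, rose from 561, 571, 608 and 623 CPM to 1584, 1293, 2346 and 2399 (log2 fold change 1.69, SE 0.18, adjusted p = 0.000138). The exception was Saa4, the serum amyloid A that is made without an acute-phase stimulus, which fell from 4778, 4593, 4339 and 4976 CPM to 3134, 2705, 2909 and 3208 (log2 fold change -0.64, SE 0.069, adjusted p = 0.000132). Of 27 negative acute-phase and transport proteins 14 (51.9%) were lower and 0 higher (12 and 0 without library 10). Sepp1, which carries selenium, fell from 2969.8, 3487, 2716 and 3247 CPM to 2056, 1573, 1632 and 1699 (log2 fold change -0.84, SE 0.10, adjusted p = 0.000251), Ttpa, which loads vitamin E for export, from 72.6, 69.9, 64.4 and 79.1 to 46.1, 34.2, 36.2 and 39.2 (log2 fold change -0.88, SE 0.10, adjusted p = 0.000183), and Igfals, which holds IGF-1 in the blood, from 74.5, 94.4, 69.1 and 89.5 to 44.9, 28.6, 34.5 and 35.5 (log2 fold change -1.19, SE 0.14, adjusted p = 0.000239). The 5 largest rises in absolute level were mRNAs of plasma proteins that were already abundant. Hpx, which binds free heme, went from a mean of 22687 CPM to 28998 CPM (log2 fold change 0.35, SE 0.044, adjusted p = 0.000265), Fga and Fgb, chains of fibrinogen, rose by 0.20 and 0.20 on the log2 scale, and Apob, the backbone of very low density lipoprotein, by 0.59. Agt, the precursor of angiotensin, was the largest of these in fold, at 4862, 7675, 5175 and 5479 CPM against 948, 967, 1037 and 1043 (log2 fold change 2.54, SE 0.14, adjusted p = 5e-06). Saa4, Sepp1, Ahsg and Rbp4 were among the 5 largest losses in absolute level. Rbp4, the carrier of retinol, fell from a mean of 2460.3 CPM to 1556 (log2 fold change -0.66, SE 0.082, adjusted p = 0.000277). Ahsg, a fetuin, fell by 0.27 on the log2 scale (adjusted p = 0.0385) and lost its call without library 9, 11, 12, 13, 14 or 16 (adjusted p up to 0.099).

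Coagulation and complement genes did not move as blocks. Of 34 coagulation and fibrinolysis genes 7 (20.6%) were higher and 10 (29.4%) lower, shares near those of all genes. Procr, the endothelial receptor of protein C, rose from 10, 6.74, 9.03 and 7.97 CPM to 19.5, 31.5, 23.3 and 20.4 (log2 fold change 1.49, SE 0.17, adjusted p = 0.000197), and Thbd, thrombomodulin, which turns thrombin toward protein C, from 12.7, 14.2, 15.4 and 13.8 to 25.9, 30.7, 40.5 and 35.4 (log2 fold change 1.24, SE 0.13, adjusted p = 0.000131). Serpinb2, an inhibitor of urokinase, was at 1.25, 0.769, 0.841 and 1.15 CPM in sepsis, where in the controls it was at 0 in 3 libraries and at 0.0499 CPM in library 15. Plau, urokinase itself, fell from 6.64, 6.3, 7.03 and 4.92 to 2.44, 2.46, 2.97 and 2.71 CPM (log2 fold change -1.23, SE 0.15, adjusted p = 0.000257). Klkb1 (prekallikrein, -0.82) and Serpind1 (heparin cofactor II, -1.0), both made by hepatocytes, fell with adjusted p of 0.000455 and 0.000267. Of 41 complement genes 4 were higher and 9 (22%) lower. C9, which forms the pore of the attack complex, rose from 1800.4, 1356, 1903 and 1531 CPM to 2534, 2257, 3179 and 2597 (log2 fold change 0.68, SE 0.13, adjusted p = 0.0023). Itgam and Itgb2, which together form the complement receptor of myeloid cells, rose by 1.45 and 0.43 on the log2 scale (adjusted p = 0.000377 and 0.0049). C4a and C4b, near-identical copies whose reads cannot be assigned with certainty, had changes of -0.57 and -0.59, and Gpr77, a receptor of the complement fragment C5a, had -1.46.

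Apolipoprotein and lipoprotein genes had 5 of 26 higher and 11 (42.3%) lower. Apoa5, which promotes the clearance of triglyceride, rose from 1436, 1451, 1671 and 1489 CPM to 2547, 2677, 2714 and 2864 (log2 fold change 0.84, SE 0.066, adjusted p = 3.69e-05), and Abca1, which exports cholesterol, from 156, 129, 136 and 143 to 397, 387, 334 and 278 (log2 fold change 1.31, SE 0.12, adjusted p = 5.63e-05). Mttp, which loads lipid onto Apob, fell from 192, 281, 294 and 198 CPM to 128, 105, 105 and 115 (log2 fold change -1.09, SE 0.15, adjusted p = 0.000409), in the opposite direction to Apob itself. Scarb1, the receptor for high density lipoprotein, fell from 74.4, 86.6, 87.6 and 86 to 46.5, 44.8, 51.4 and 54.2 CPM (log2 fold change -0.76, SE 0.081, adjusted p = 0.00013).

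Markers of cell types were counted because a bulk library holds all cells of the tissue, and in it fewer cells of a type cannot be told apart from less RNA per cell. Of 27 hepatocyte markers all were detected, at a summed 131300 to 148200 CPM in sepsis and 137300 to 151100 CPM in controls, and 11 were lower and 3 higher. Hnf4a, the factor that holds the hepatocyte state, fell from 1063, 982, 1027 and 1008 CPM to 661, 560.3, 599.5 and 633 (log2 fold change -0.73, SE 0.065, adjusted p = 5.63e-05). The higher members were Apob, Pck1, the first enzyme of gluconeogenesis, at 1522, 2172, 1263 and 1042 CPM against 571, 609.9, 1008 and 593 (log2 fold change 1.11, SE 0.25, adjusted p = 0.00558), and Tat, a glucocorticoid-driven aminotransferase, at 2609, 2531, 2759 and 2366 against 1342, 375, 1142 and 1278 (log2 fold change 1.31, SE 0.32, adjusted p = 0.00869). Pck1 was highest in library 10, and its change was 0.88 without that library. Neutrophil and monocyte markers summed to 195 to 253 CPM in sepsis and 114 to 145 CPM in controls, so the groups did not overlap. Of the 30 tested 17 (56.7%) were higher and 1 lower (15 and 1 without library 10), with a median of 0.71, and Ly6c was at 0 in all 8 libraries. The lower member was Hdc, which makes histamine (-1.77). S100a8, a cytosolic protein of neutrophils, was at 14.7, 16, 12.5 and 11.7 CPM against 6.57, 6.8, 7.23 and 5.13 (log2 fold change 1.09, SE 0.14, adjusted p = 0.000289), Ngp at 1.96, 2.67, 2.69 and 1.85 against 0.0678, 0, 0.2 and 0.0508 (log2 fold change 4.66, SE 0.46, adjusted p = 9.78e-05) and the inhibitory receptor Lilrb4 at 8.32, 8.97, 9.42 and 7.98 against 2.78, 2.04, 3.39 and 2.74 (log2 fold change 1.65, SE 0.15, adjusted p = 7.24e-05). The chemokine and NF-κB lists were more often higher in sepsis too. Among the sepsis libraries, library 10 had the highest mean level of these markers over the controls (0.962 on the log2 scale). It had the lowest for chemokines (0.856) and for NF-κB and Toll-like receptor genes (0.536). The part of these markers in those changes was not tested.

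Kupffer cell and macrophage markers summed to 2027 to 2191 CPM in sepsis and 1604 to 2317 CPM in controls, which overlap. Of 32 tested, 11 were higher and 5 lower. Clec4f, a lectin of Kupffer cells, fell from 95.1, 115, 85.6 and 93.3 CPM to 52.7, 49.1, 64.5 and 54.7 (log2 fold change -0.82, SE 0.11, adjusted p = 0.000387), as did the high-affinity immunoglobulin receptor Fcgr1a (-1.33) and the iron exporter Slc40a1 (-0.56). The shared myeloid genes Ctsb (0.61), Fcer1g (0.81) and Mertk (0.79) rose, with adjusted p between 0.000122 and 0.000317. Endothelial genes had 9 higher and 7 lower of 31, at 673 to 746 CPM in sepsis and 660 to 713 CPM in controls. Esam, an adhesion molecule of endothelial junctions, rose by 0.84, Apold1 by 1.60, and Selp, P-selectin, which catches leukocytes, was at 1.84, 1.69, 1.85 and 1.85 CPM against 0.474, 0.618, 0.499 and 0.203 (log2 fold change 2.02, SE 0.28, adjusted p = 0.000487). Kdr, the VEGF receptor, fell from 37, 64.9, 44.1 and 44.5 to 15.3, 10.3, 15.1 and 13.3 CPM (log2 fold change -1.82, SE 0.18, adjusted p = 0.000102), the factor Gata4 by 0.65 and Stab2, a scavenger receptor of sinusoids, by 0.44. Of 24 stellate cell and fibroblast markers 5 were higher and 7 lower, led by Timp1, an inhibitor of matrix proteases, which rose from 8.27, 6.55, 7.08 and 6.6 CPM to 22.5, 23.8, 23.9 and 20.9 (log2 fold change 1.68, SE 0.093, adjusted p = 5.75e-06). Lymphocyte markers were low, with 20 of 31 short of the counts for a test, 0 higher by edgeR, DESeq2 or limma-voom (2 at an unadjusted p below 0.05) and 2 lower among the 11 tested (Cd4 -0.40, Lck -0.80), and sums of 25.7 to 32.5 CPM in sepsis and 29.2 to 30.3 CPM in controls. Bile duct markers (2 higher, led by osteopontin, Spp1, at 1.49, and 1 lower, of 10) and erythroid genes (0 higher and 2 lower of 10) had few calls. Without library 10 the bile duct counts were 1 and 1, the change of Spp1 was 1.14 and the erythroid counts were 0 and 3. Of 5 intestinal genes tested 2 were higher and 2 lower. The 1 pancreatic acinar marker tested was not called, and 7 of 23, trypsins and lipases among them, were at 0 in all 8 libraries. Brain markers were called higher for 4 of 23 with library 10 and for 1, the glutamate transporter Slc1a3, without it (2.37 and 0.67, with adjusted p up to 0.216 over the alternatives). Another 2 were called lower without library 10, and their median went from 1.70 to 0.02.

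Regulators of hepatocyte metabolism were more often lower than higher. Of 54 liver transcription factors and nuclear receptors 23 (42.6%) were lower, Nr1i3, Nr0b2 and Rxrg among them, and 5 higher. Nr1h4, the bile acid receptor FXR, was at 19.1, 12.9, 13.7 and 16.5 CPM in sepsis and 52.9, 82, 73.4 and 61.3 in controls (log2 fold change -2.11, SE 0.16, adjusted p = 3.22e-05). Thrb, the main thyroid hormone receptor of liver, fell from 39, 41.5, 47.9 and 34.4 CPM to 16.6, 14, 17.8 and 15.3 (log2 fold change -1.36, SE 0.11, adjusted p = 4.48e-05), and Ahr, the sensor of aromatic compounds, from 19, 17.8, 21 and 18.2 to 10, 8.41, 9.7 and 9.42 (log2 fold change -1.02, SE 0.086, adjusted p = 4.86e-05). The rises were led by Foxa1, a pioneer factor, from 29.3, 19.1, 23.5 and 29.1 to 49.6, 49.1, 49.1 and 45 CPM (log2 fold change 0.93, SE 0.12, adjusted p = 0.000385), Nr5a2 (0.64) and Foxo3 (0.81), and the call of Foxo3 was lost in the fit of all 16 libraries (adjusted p = 0.0529). Of 24 glucocorticoid-induced genes 10 (41.7%) were higher and 1 lower, among them the metallothioneins Mt1a (0.93) and Mt2A (0.88), close copies whose reads could be shared. Tsc22d3, a standard glucocorticoid target, was the lower member (-0.46, adjusted p = 0.0211), a call lost without library 11, 12, 15 or 16 (adjusted p up to 0.0594).

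Clock genes were split. Of 28 clock genes and outputs 7 were higher and 10 lower (6 and 12 without library 10). Dbp, an output factor that binds D-boxes, fell from 97.5, 122, 104 and 109 CPM to 24.7, 32.3, 28.5 and 29.9 (log2 fold change -1.91, SE 0.099, adjusted p = 4.11e-06), and Usp2 from 17.4, 20, 24 and 21.8 to 2.56, 3.69, 3.08 and 3.93 (log2 fold change -2.63, SE 0.15, adjusted p = 5.75e-06), both with narrow spreads within each group. Arntl (BMAL1), which peaks in the opposite phase, rose from 4.07, 1.24, 1.75 and 5.43 to 12.7, 10, 10.9 and 8.78 CPM (log2 fold change 1.75, SE 0.37, adjusted p = 0.00456) and its partner Clock from 6.03, 4.39, 5.14 and 5.79 to 11.4, 17.4, 9.03 and 7.31 (log2 fold change 1.07, SE 0.25, adjusted p = 0.00731). Clock was highest in library 10, and its change was 0.78 without that library. Nampt, the rate-limiting enzyme of NAD salvage, rose from 767, 739.7, 859 and 655 to 1152, 1382, 1069 and 1176 CPM (log2 fold change 0.66, SE 0.1, adjusted p = 0.00073). A single time was sampled, so level and phase cannot be told apart.

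Detoxification and bile acid genes showed some of the widest losses among the lists. Of 55 cytochrome P450 genes 25 (45.5%) were lower and 4 higher, with a median of -0.23. Cyp2c7 fell from 715, 777, 812 and 765 CPM to 433, 355, 396 and 405 (log2 fold change -0.95, SE 0.073, adjusted p = 3.35e-05) and Cyp2b2, a classic target of Nr1i3, from 383, 418, 474 and 315 to 136, 147, 89.8 and 131 (log2 fold change -1.66, SE 0.17, adjusted p = 9.78e-05). Cyp2c6v1 fell by 0.72 on the log2 scale. These families have near-identical members, and how reads were divided among them is not known. Cyp27b1, which activates vitamin D, was higher, at 1.96, 1.59, 1.07 and 1.34 CPM against 0.339, 0.371, 0.499 and 0.254 (log2 fold change 2.00, SE 0.29, adjusted p = 0.000615), as were Cyp3a9 (0.81) and Cyp4b1 (0.66). Of 48 conjugating enzymes 33 (68.8%) were lower and 4 higher, with a median of -0.53. Ugt1a5 was at 22.6, 21.2, 21.8 and 20.8 CPM against 48.9, 48.8, 43.5 and 42.8 (log2 fold change -1.09, SE 0.069, adjusted p = 1.08e-05), with its first exon family sharing the rest of the gene, and the glutathione transferases Gstm4 (-1.07) and Gstt2 (-0.88) fell with it. The methyltransferase Nnmt, which uses up nicotinamide, rose from 231, 192, 213 and 216 to 463, 453, 469.8 and 522 CPM (log2 fold change 1.16, SE 0.075, adjusted p = 1.11e-05), and the acetyltransferases Nat1 (0.77) and Nat2 (0.75) rose too.

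Of 33 bile acid genes 25 (75.8%) were lower and 2 higher, with a median of -0.56. Baat, which joins bile acids to taurine or glycine, fell from 341, 403, 339 and 390.1 CPM to 106, 62.6, 50.5 and 64.2 (log2 fold change -2.38, SE 0.20, adjusted p = 4.88e-05), and Akr1c14 from 972, 1169.8, 1245 and 1067 to 308, 145, 222 and 252 (log2 fold change -2.27, SE 0.20, adjusted p = 5.63e-05). Abcb1b, a multidrug exporter, was higher, at 42.4, 9.59, 27.7 and 12.8 CPM against 4.13, 3.28, 3.54 and 2.44 (log2 fold change 2.79, SE 0.46, adjusted p = 0.00123), with a wide spread within sepsis. Nr5a2, an activator of bile acid synthesis, was the other higher member, while the receptor Nr1h4 fell.

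**Figure D3:**
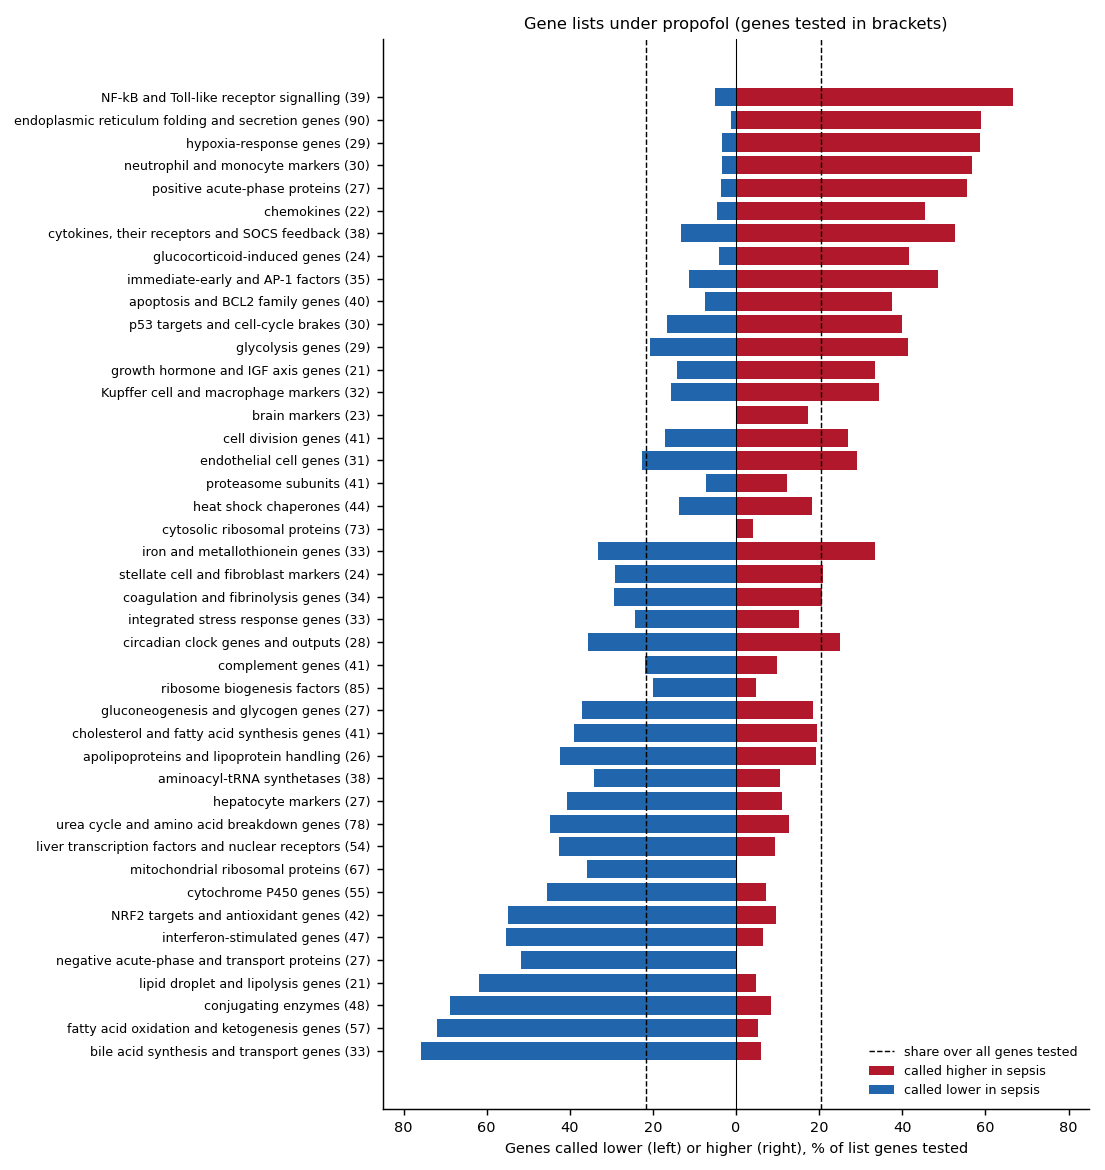
Share of the tested genes of each list that was called lower (left, blue) or higher (right, red) in Propofol-Sepsis, for the lists with at least 20 tested genes, with dashed lines at the shares of all genes tested (21.7% lower and 20.4% higher). NF-κB and Toll-like receptor genes reach 66.7% higher at the top and bile acid genes 75.8% lower at the bottom.

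Genes that burn or store fat were mostly lower. Of 57 genes of fatty acid oxidation and ketogenesis 41 (71.9%) were lower and 3 higher, with a median of -0.48. Acsl1, which activates fatty acids, was at 241, 155, 156 and 180.5 CPM against 500.4, 676, 842 and 485 (log2 fold change -1.77, SE 0.20, adjusted p = 0.000184). Cpt2, which frees fatty acids for oxidation inside mitochondria, fell from 122, 167, 202 and 126 to 55.8, 49.8, 55.2 and 58.4 (log2 fold change -1.49, SE 0.15, adjusted p = 0.000111), and the acetyl-CoA hydrolase Acot12 from 29.3, 46.6, 66.7 and 27.9 to 9.69, 8.05, 7.07 and 6.77 (log2 fold change -2.44, SE 0.28, adjusted p = 0.000188). The members that rose were Cpt1b, the muscle form of carnitine palmitoyltransferase, at 7.19, 7.74, 7.18 and 6.83 CPM against 5.02, 2.97, 4.59 and 4.26 (log2 fold change 0.78, SE 0.16, adjusted p = 0.0033), Acsl4 (0.59), which prefers arachidonic acid, and the transporter Slc27a4 (0.61). Of 21 lipid droplet and lipolysis genes 13 (61.9%) were lower and 1 higher, with a median of -0.76. Beside G0s2, the lysosomal lipase Lipa fell from 188, 200.2, 196 and 182 CPM to 102, 74, 80.5 and 79.3 (log2 fold change -1.20, SE 0.096, adjusted p = 3.92e-05) and Cideb, which loads lipid onto lipoproteins, from 94.8, 108, 112 and 99.1 to 54.3, 31.9, 46 and 52.4 (log2 fold change -1.17, SE 0.15, adjusted p = 0.000294). The higher gene was Bscl2 (seipin, 0.49, adjusted p = 0.0174), a call lost without library 9 and in the fit of all 16 libraries (adjusted p up to 0.0726).

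Of 41 genes of cholesterol and fatty acid synthesis 8 were higher and 16 (39.0%) lower, with 9 and 12 without library 10. Insig1, which holds SREBP in the endoplasmic reticulum, rose from 118, 72, 107 and 121 CPM to 246, 347, 220.4 and 238 (log2 fold change 1.33, SE 0.18, adjusted p = 0.000471), and Stard4, a carrier of cholesterol, from 25.4, 22.1, 20.8 and 29.3 to 55, 70.9, 50.4 and 46 (log2 fold change 1.19, SE 0.15, adjusted p = 0.000289). Mlxipl (ChREBP), the carbohydrate-sensing factor of lipogenesis, fell from 88.1, 87.8, 93.5 and 103 to 54.8, 48.6, 39.4 and 49 CPM (log2 fold change -0.96, SE 0.10, adjusted p = 0.00012).

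Glucose genes moved in both directions. Of 29 glycolysis genes 12 (41.4%) were higher and 6 (20.7%) lower. Without library 10 the counts were 11 and 6, and the median went from 0.39 to 0.23. Slc2a1, the glucose transporter GLUT1 found outside hepatocytes, rose from 5.49, 2.29, 2.44 and 4.42 CPM to 16.2, 27.3, 14.2 and 13.6 (log2 fold change 2.29, SE 0.32, adjusted p = 0.000443), and the liver transporter Slc2a2 (GLUT2) fell from 196, 368, 429 and 213 to 81, 73.8, 56.1 and 61.9 (log2 fold change -2.15, SE 0.25, adjusted p = 0.000219). Hk2 (1.60) and Pfkfb3 (1.25), inducible enzymes of glycolysis, rose. Gckr, the regulator of liver glucokinase, fell by 0.78. Of 27 genes of gluconeogenesis and glycogen 5 were higher and 10 (37.0%) lower. Ppp1r3b, which brings a phosphatase to glycogen, fell from 68.1, 67.4, 60 and 87.2 CPM to 20.6, 13.9, 15.9 and 14.8 (log2 fold change -2.12, SE 0.14, adjusted p = 1.7e-05), and Creb3l3, a fasting-responsive factor, from a mean of 454 to 228 CPM (log2 fold change -1.0, SE 0.091, adjusted p = 6.44e-05). Genes of insulin signalling were among the rises, with Irs2 at 96, 145, 97 and 69.7 CPM against 25.7, 19.9, 43.1 and 20.2 (log2 fold change 1.90, SE 0.28, adjusted p = 0.000677), Irs1 (1.28) and the receptor Insr (0.66).

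Of 78 genes of the urea cycle and amino acid breakdown 35 (44.9%) were lower and 10 higher. Got1, the cytosolic aspartate aminotransferase, rose from 199, 102, 156 and 209 CPM to 708, 1030.2, 608 and 593 (log2 fold change 2.14, SE 0.24, adjusted p = 0.000187), while the alanine aminotransferase Gpt2 fell from 96.9, 86.7, 107 and 109.7 to 49.6, 32, 42.7 and 39.7 (log2 fold change -1.29, SE 0.13, adjusted p = 9.78e-05). The mitochondrial ornithine carrier Slc25a15 rose by 0.90, and by 0.68 without library 10. Afmid (-1.66) and Haao (-1.13), both enzymes of tryptophan breakdown toward NAD, were lower.

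Stress lists differed in direction. Of 90 genes of endoplasmic reticulum folding and secretion 53 (58.9%) were higher and 1 lower, with a median of 0.23, and without library 10 the count was 60 and 1. Syvn1, a ligase that marks misfolded proteins, rose from 134, 143, 138 and 139 CPM to 215, 227, 214 and 225 (log2 fold change 0.67, SE 0.054, adjusted p = 3.89e-05), Edem3, which trims sugars from them, from 53.1, 46.6, 54 and 47.4 to 98.5, 109, 96.7 and 83 (log2 fold change 0.95, SE 0.092, adjusted p = 9.24e-05), and Derl3 from 13.1, 20.3, 15.2 and 13.2 to 33.8, 36.6, 43.4 and 36.6 (log2 fold change 1.28, SE 0.14, adjusted p = 0.000158). The lower gene was Sar1b, a coat GTPase needed for the export of large lipoproteins, at 131, 114, 116 and 123 CPM against 148, 198, 187 and 154 (log2 fold change -0.51, SE 0.10, adjusted p = 0.00319). Of 33 genes of the integrated stress response 5 were higher and 8 (24.2%) lower, near the share of all genes. Its kinase Eif2ak3 (PERK, 0.71) and its phosphatase subunit Ppp1r15a (1.03) rose, while Atf5 (-0.67) and Fgf21 fell.

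Of 42 NRF2 targets and antioxidant genes 23 (54.8%) were lower and 4 higher, with a median of -0.30. Cat, catalase, fell from 859, 919, 908 and 845 CPM to 506, 421, 369 and 402 (log2 fold change -1.06, SE 0.093, adjusted p = 5.63e-05), and Aox1 from 572, 604, 639 and 547 to 319, 278, 313 and 289 (log2 fold change -0.98, SE 0.072, adjusted p = 2.53e-05). Akr7a3, an aflatoxin aldehyde reductase, fell from 233, 112, 249 and 114 to 38, 27.5, 32.9 and 26 CPM (log2 fold change -2.51, SE 0.29, adjusted p = 0.00018). In the other direction Sod2, the superoxide dismutase of mitochondria and an NF-κB target, rose from 256, 201, 350.1 and 172 CPM to 1168, 1198, 1574 and 1291 (log2 fold change 2.42, SE 0.21, adjusted p = 5.21e-05) and Gpx2 from 1.15, 0.927, 0.748 and 0.863 to 6.95, 3.59, 1.96 and 3.64 (log2 fold change 2.13, SE 0.37, adjusted p = 0.00149).

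Of 29 hypoxia-response genes 17 (58.6%) were higher and 1 lower (18 and 2 without library 10). Kdm3a, a histone demethylase induced by HIF, rose from 18.5, 16.9, 17.6 and 16.6 CPM to 32.6, 40.8, 30.4 and 27.1 (log2 fold change 0.91, SE 0.12, adjusted p = 0.000349), and Mxi1 was the lower member (-0.69), with a call lost in the fit of all 16 libraries (adjusted p = 0.0989). Iron and metal genes were balanced at 11 higher and 11 lower of 33. Hfe2, hemojuvelin, a co-receptor for the signal that raises hepcidin, fell from 34.2, 45.6, 39.1 and 55.7 CPM to 9.63, 11.8, 11.5 and 12.3 (log2 fold change -1.94, SE 0.15, adjusted p = 3.35e-05), the zinc exporter Slc30a1 by 1.08, and Aco1, the iron-sensing aconitase, by 1.0. The zinc and iron importer Slc39a14 rose from 842, 845, 861 and 873 to 1163, 1102, 1290.3 and 1233 CPM (log2 fold change 0.48, SE 0.061, adjusted p = 0.000289). Heat shock chaperones had 8 higher and 6 lower of 44, both below the shares of all genes. The sepsis libraries differed here. The mean level of the list over the controls was 0.426 on the log2 scale in library 9. In libraries 10, 11 and 12 it was -0.0421, -0.0515 and -0.0174.

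Genes of protein synthesis had few rises. Of 73 cytosolic ribosomal protein genes 3 were higher and 0 lower with all libraries, and 13 and 0 without library 10, with medians of 0.07 and 0.12. Rps23 was at 181, 193, 204 and 202 CPM against 166, 165, 155 and 166 (log2 fold change 0.26, SE 0.061, adjusted p = 0.00744). Ribosomal protein genes share sequence with many processed copies, and Rpl8 and Rplp2 were listed at 0 in all 8 libraries. Of 67 mitochondrial ribosomal protein genes 24 (35.8%) were lower and 0 higher, with 19 and 2 without library 10 and medians of -0.15 and -0.07. Mrpl15 fell from 26.3, 30.2, 30.4 and 30.5 CPM to 20.7, 14, 17.6 and 20.6 (log2 fold change -0.68, SE 0.12, adjusted p = 0.00171), and library 10 had the lowest value. Ribosome biogenesis factors went from 4 higher and 17 lower of 85 to 11 and 11 without library 10, so their balance rested on that library. Of 38 aminoacyl-tRNA synthetase genes 13 (34.2%) were lower and 4 higher. Wars, the tryptophan enzyme that is also an interferon-γ target, rose from 108, 85.7, 88 and 99.1 to 216, 212, 248 and 246 CPM (log2 fold change 1.28, SE 0.092, adjusted p = 2.41e-05), in contrast to the cysteine enzyme Cars (-0.58). Proteasome subunits had 5 higher and 3 lower of 41, with Psmd8 up by 0.40 and Psmd5 down by 0.58.

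Growth and survival genes changed in both directions. Of 21 genes of the growth hormone and IGF axis 7 (33.3%) were higher and 3 lower, with Jak2, the kinase of the growth hormone receptor, up from 22.8, 17.9, 19.2 and 17.6 CPM to 69.2, 57.2, 73.2 and 62.2 (log2 fold change 1.76, SE 0.11, adjusted p = 8.56e-06) and the repressor Bcl6 from 18, 14.2, 16.6 and 24.6 to 37.5, 50.5, 42.2 and 40.6 (log2 fold change 1.22, SE 0.16, adjusted p = 0.000362). Of 40 apoptosis and BCL2 family genes 15 (37.5%) were higher and 3 lower. The 3 rises with the smallest adjusted p were inhibitors of cell death, namely Cflar, which blocks caspase-8, from 38.4, 27.3, 33.3 and 32 CPM to 92.3, 94.3, 98.8 and 83.9 (log2 fold change 1.5, SE 0.10, adjusted p = 1.42e-05), Birc3 (1.23) and Mcl1 (0.55). The 3 falls were the death mediators Casp12 (-0.76), Casp8 (-0.68) and Gsdmd (-1.07), with adjusted p between 0.00148 and 0.0155. The other rises of the list were not sorted into genes for and against cell death, so no shift of the list toward survival is read from these. Of 30 p53 targets and cell-cycle brakes 12 (40.0%) were higher and 5 lower. Gadd45g rose from 32.7, 45.8, 38.1 and 35.5 CPM to 86.7, 74.1, 78.9 and 85.6 (log2 fold change 1.10, SE 0.10, adjusted p = 7.9e-05), Btg2 from 155, 111, 159 and 92.5 to 379.9, 588, 462 and 295 (log2 fold change 1.73, SE 0.23, adjusted p = 0.000393) and Btg3 by 1.20, while Rbl2, a member of the retinoblastoma family, fell by 0.37. Of 41 cell division genes 11 were higher and 7 lower (15 and 6 of 43 without library 10). The D-type cyclins diverged, with Ccnd3 up from 24.7, 21.3, 21.4 and 24.5 CPM to 55.5, 64.2, 51 and 50.8 (log2 fold change 1.27, SE 0.093, adjusted p = 2.55e-05) and Ccnd1 down from 15.5, 27.6, 22.6 and 20.1 to 8.2, 5.43, 10.1 and 9.8 (log2 fold change -1.35, SE 0.21, adjusted p = 0.000927).

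**Figure D4:**
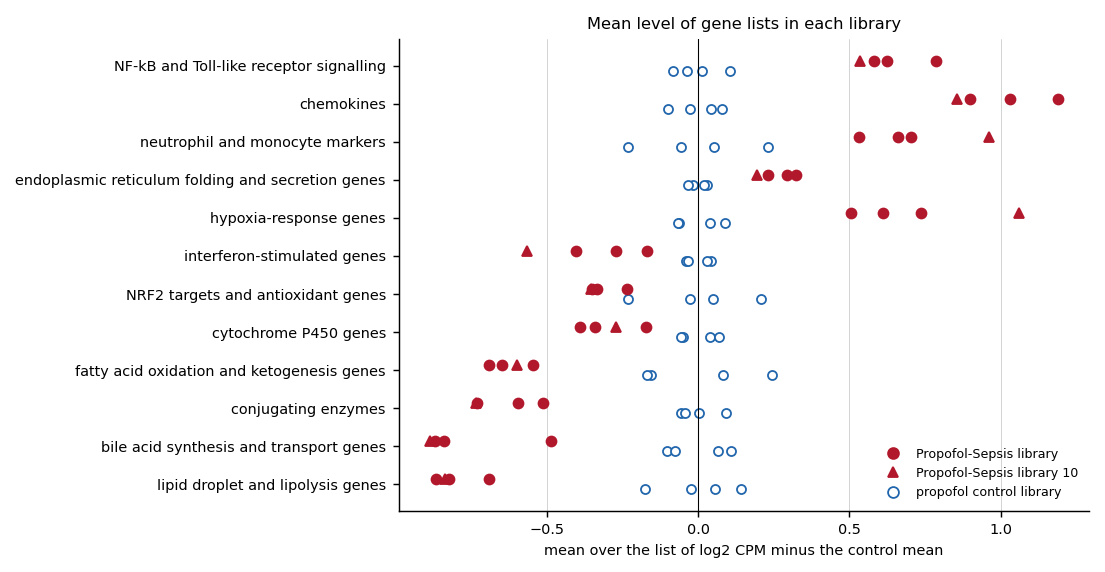
Mean over the tested genes of 12 lists of log2 CPM minus the mean of the propofol controls, in each library, with sepsis libraries filled, library 10 as a triangle and controls open. Bile acid genes lie between -0.886 and -0.486 in the sepsis libraries and between -0.102 and 0.11 in the controls, NF-κB and Toll-like receptor genes between 0.536 and 0.787 and between -0.082 and 0.106, and library 10 is the lowest sepsis library for interferon-stimulated genes at -0.565.

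The response under propofol was then set against that under isoflurane, whose libraries are other rats, so the comparisons share no library. Under isoflurane 2659 of 10361 genes (25.7%) were higher and 2524 (24.4%) lower. Of the genes tested under both, 1459 were called higher under both anesthetics, which is 69.9% of the rises under propofol and 55.8% of those under isoflurane. The falls shared 1535 genes, 68.9% and 61.4%. In 30 of the 10182 genes tested under both the calls were opposite. Of these 22 were lower under propofol and higher under isoflurane, 0.987% of the falls under propofol. The other 8 went the reverse way, 0.383% of the rises under propofol. Rats under isoflurane were also induced with isoflurane, and the names of the deposited files carry a different code for each anesthetic, so anesthetic, induction drug and whatever the code stands for cannot be told apart. CPM were scaled separately for each anesthetic, so levels under both are given side by side with no test. The difference of the responses was tested in 1 fit of all 16 libraries. Of 10621 genes 113 (1.06%) had a response under propofol above that under isoflurane and 176 (1.66%) below. The size of this set depended on single libraries, from 54 genes in all without library 12 to 1615 without isoflurane sepsis library 1. DESeq2 gave 847. The 10 genes named next were picked for the smallest adjusted p in each direction. Each kept its call in all 20 alternatives, but these reuse the same libraries, so that says little about the rest of the set.

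RGD1311723, a locus named by its database number alone, had the largest difference of these 10. It rose under propofol, from 1.42, 1.17, 1.95 and 1.83 CPM to 8.62, 5.43, 5.66 and 4.02 CPM, and fell under isoflurane, from 6.78, 4.47, 6.24 and 3.13 to 2.43, 2.27, 2.27 and 2.75 (difference 2.95, SE 0.38, adjusted p = 0.00351). Tmem164 also rose under propofol (0.46) and fell under isoflurane (-0.68, difference 1.14, SE 0.17, adjusted p = 0.00745). Rapgef5, an activator of Rap GTPases, and Nnmt rose under propofol by 1.14 and 1.16, with 0.31 and 0.25 under isoflurane (differences 0.84, SE 0.12, adjusted p = 0.00739 and 0.92, SE 0.14, adjusted p = 0.0101). Crot, which moves medium-chain fatty acids out of peroxisomes, fell under both, by 0.70 under propofol and by 2.23 under isoflurane (difference 1.54, SE 0.21, adjusted p = 0.00545).

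On the other side Klf16, a zinc finger factor, fell under propofol from 22.6, 21.2, 24.7 and 19.7 CPM to 13.8, 15.2, 14.8 and 14.9 and rose under isoflurane from 12.2, 14.8, 11.9 and 12.7 to 17.8, 25.7, 26.1 and 18.1 (difference -1.34, SE 0.17, adjusted p = 0.00351). Tgm2, a protein cross-linking enzyme, was at 209, 223, 268 and 198 CPM against 209, 180.0, 206 and 184 under propofol, where it was not called, and at 312, 391, 529 and 406 against 119.5, 128, 101 and 139 under isoflurane (difference -1.53, SE 0.20, adjusted p = 0.00351). Cd74 was at 108, 118, 124 and 126 CPM in Isoflurane-Sepsis and 72.2, 67.8, 84.7 and 65.2 in its controls, a rise of 0.72, where propofol gave -0.11 (difference -0.82, SE 0.12, adjusted p = 0.00739). Pced1a rose less under propofol (0.31) than under isoflurane (1.10), with a difference of -0.78, SE 0.12, adjusted p = 0.00745. Gpr108 was called under propofol (-0.70) and not under isoflurane (-0.067), with a difference of -0.62, SE 0.091, adjusted p = 0.00745.

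By list, counts are to be read against 1.66% of all genes below and 1.06% above, and every list with 3 or more calls in a direction is given. The response was below that under isoflurane for 6 of 42 NRF2 targets, 6 of 48 interferon-stimulated genes, 3 of 8 MHC class II genes, 3 of 23 chemokines, 3 of 31 neutrophil and monocyte markers, 3 of 32 Kupffer cell and macrophage markers and 3 of 85 ribosome biogenesis factors, with 0 above in each. It was below for 5 of 40 apoptosis genes, 4 of 30 p53 targets and 4 of 42 cytokine genes, with 1, 1 and 2 above. It was above for 7 of 78 genes of amino acid breakdown and 4 of 41 of cholesterol and fatty acid synthesis, with 0 below. Among genes already described, G0s2 fell under propofol and was at 3.88, 18.7, 34.1 and 5.09 CPM against 20.7, 13.9, 22.1 and 21.8 under isoflurane (difference -3.28, SE 0.70, adjusted p = 0.0298). Ppp1r3b had -2.12 under propofol and -0.36 under isoflurane, where it was not called (difference -1.74, SE 0.31, adjusted p = 0.0143). Got1 rose under propofol and was not called under isoflurane (0.077), where its controls were at 915, 1177, 925 and 1251 CPM (difference 2.08, SE 0.33, adjusted p = 0.0106). These 3 were singled out after their values were seen. The mean of the controls under propofol and isoflurane was 55.3 and 19.7 CPM for G0s2, 70.7 and 30.3 for Ppp1r3b and 167 and 1067 for Got1. Among the 10 genes it was 1.59 and 5.16 CPM for RGD1311723, 213 and 432 for Nnmt, 22 and 12.9 for Klf16, 195 and 122 for Tgm2, 117 and 72.4 for Cd74, 18.1 and 12.9 for Pced1a, 28.5 and 20.5 for Gpr108, 18.4 and 23.6 for Rapgef5, 8.72 and 7.58 for Tmem164 and 24.8 and 26.9 for Crot. The part of these control levels in the differences was not tested.

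**Figure D5:**
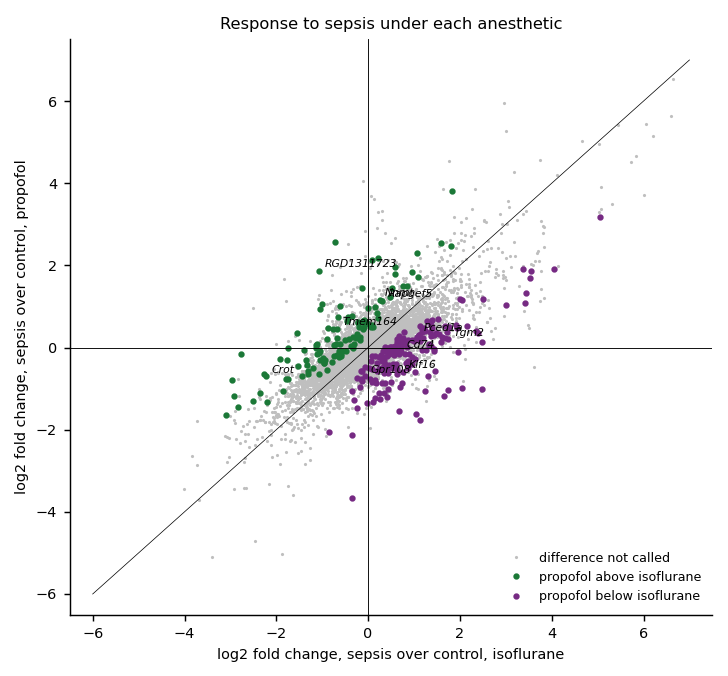
Log2 fold change of sepsis over control under isoflurane (horizontal) and propofol (vertical) for each gene, with the 10 named genes labelled, genes whose responses differed coloured and the line marking equal responses. RGD1311723 lies above 0 under propofol (1.87) and below 0 under isoflurane (-1.07), and Klf16 the reverse (-0.58 and 0.76).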

How the data were processed

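Liver RNA of pools of rats was read as poly(A) directional libraries, and the authors deposited raw read counts per gene for each library, from alignments made with STAR to rn5 according to the submitters' processing notes. For the counting program and the gene annotation, the sources read here name none. From these counts the column named by the rule was read, the rows for reads with no feature and ambiguous reads were dropped, and 17055 gene symbols remained, of which 14175 are current RefSeq symbols. Counts were scaled by TMM, filtered with filterByExpr (minimum count 10, minimum total 15) and tested with edgeR 4.0.16 (quasi-likelihood) in R 4.3.3, in a fit of the 8 propofol libraries, with Benjamini-Hochberg adjustment and a threshold of 0.05. The difference from isoflurane was an interaction term over 16 libraries. Alternatives were other scaling (RLE, library totals alone), DESeq2 1.42.0, limma-voom (limma 3.58.1), no count filter, a filter at mean CPM 1, all 16 libraries in 1 fit, counts thinned to the shallowest library, and each library left out. The statistical script was tested on simulated data.

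Named genes were the 12 largest rises and 12 largest falls called with and without library 10 whose groups did not overlap and whose average log2 CPM reached 1, the 5 largest rises and falls in mean CPM, the top 3 called genes by adjusted p, per direction, of 49 gene lists, and the 5 smallest in each direction for the interaction, in some places shortened. Members and lists were chosen with earlier results of these data known. Of 1974 listed genes 1848 were matched by symbol and 1620 tested. Some genes that these rules take are not reported here and stay in the counts. Nothing in the labels says more of the pools than their number, so p-values measure the spread between pools. Promoters are from RefSeq (GRCr8), and no coordinates of the authors' build were used. Some well-known genes are listed at 0 in all 8 libraries (Rpl8 and Hspa1a among them), so a count of 0 there may be a matter of annotation and was not read as absence. Figures were drawn with matplotlib 3.10.9.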

Additional observations from a re-analysis of the deposited data

Results flagged for a closer look

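Each group of 4 libraries was examined for 1 library far from the other 3, by the gap to its nearest neighbour as a share of the group's range, against Dixon's 95% limit for 4 values. Of 428 groups 25 passed, and chance gives about 1 in 20. Library 10 held 8 of the 25. In it the summed brain markers (0.965), Slc1a3 (0.961), Gas7 (0.964), Bcat1 (0.919), Esam (0.888) and Ikbkg (0.869) were the highest of the sepsis group, and Selp (0.94) and Nod1 (0.911) the lowest. Elsewhere in sepsis the gap share was 0.848 for G0s2 in library 9, 0.838 for Itgb8 and 0.84 for Il1b in library 11, all highest, 0.887 for Foxa1 in library 12, the lowest, and 0.849 for summed pancreatic acinar markers in library 12, the highest at 8.08 CPM. Among the controls the lowest values were Scarb1 (0.885) and Mrpl15 (0.917) in library 13, Acsl4 (0.902) and Slc25a15 (0.929) in library 14, and Psmd8 (0.977) and Rps23 (0.947) in library 15. The highest were Ccl7 (0.86) and pancreatic acinar markers (0.869) in library 14, and Tsku (0.892), Pck1 (0.912), Rapgef5 (0.919) and Serpinb2 (1.0) in library 15, the last of these being the only control library with a count.

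The responses under the anesthetics differed, by the interaction term in edgeR, for the 10 genes named in the comparison. As log2 response under propofol minus that under isoflurane, the values were 2.95 for RGD1311723, 1.54 for Crot, 1.14 for Tmem164, 0.92 for Nnmt and 0.844 for Rapgef5 above, and -1.53 for Tgm2, -1.34 for Klf16, -0.819 for Cd74, -0.78 for Pced1a and -0.62 for Gpr108 below.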

How the results depend on the processing

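The 4 counts of called genes under propofol stayed within 1.5 times their value in every alternative. Leaving out 1 library gave 1691 (without 14) to 2074 (without 10) genes higher, 1810 (14) to 2217 (10) lower, 361 (10) to 512 (12) higher by over 2-fold and 403 (14) to 496 (9) lower by over 2-fold. The count of genes whose response differed between the anesthetics was 289, with 847 by DESeq2 and, with 1 library left out, 54 (without 12) to 1615 (without isoflurane sepsis library 1), and the cause was not tested. Of 3227 values of 202 named genes 3191 kept direction and side of the threshold, 36 lost the call and 0 reversed. For 190 genes every value was kept, and the other 12 were Bcat1, Gas7, Rgs16, Ahsg, Ikbkg, Zfp36, Gbp2, Slc1a3, Foxo3, Tsc22d3, Bscl2 and Mxi1. Most named genes were picked for a small adjusted p or as the largest called changes. For the largest changes a call without library 10, which is 1 of the alternatives, was required. The choice favoured stable calls, so these counts say little about other genes. Of 1568 list counts 1458 stayed within 1.5 times. All 200 values of the 10 interaction genes, which were picked for their small adjusted p, kept their call. No paired analysis was possible because the groups share no replicate numbers. Pools of 3 rats hide the spread between rats, library 10 enters the sepsis mean with its brain transcripts, and genes with few counts, such as Serpinb2 in the controls, have folds that depend on the prior count.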
